A study of Noccaea caerulescens and Thlaspi montanum with 10 samples.

Results

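Leaves of Noccaea caerulescens subsp. firmiensis, labelled a nickel hyperaccumulator, were set against leaves of Noccaea montana, labelled a non-nickel-accumulator of another species. All 4 libraries carrying these labels as field leaf samples were taken, out of 6 field leaf libraries with count files and 10 libraries in the series. Each plant was represented by 2 individuals, 1 library each, so that the spread within a plant is the spread between 2 wild plants. The firmiensis leaves came from Puy de Wolf at Firmi (Aveyron) in July, and the N. montana leaves, listed under the organism name Thlaspi montanum, came from Suc de Clava (Ardeche) in June of the same year. All 4 samples were put into RNAlater in the field, and their labels name no treatment. Species, collection site and month therefore coincide and cannot be told apart. The measured features were 41841 transcripts assembled from firmiensis, each with a value in all 4 libraries, and 32989 of them passed the filter on low counts and were tested. The remaining field plant, a Viviez population of N. caerulescens labelled a non-nickel-accumulator and collected in June, entered the fit to share the estimate of spread.

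Nickel hyperaccumulators are plants that move nickel from root to shoot and store it in their leaves, mostly in vacuoles of the epidermis, at amounts toxic to other plants. In N. caerulescens, which is better known for zinc and cadmium, hyperaccumulation has been associated with constant high expression of genes for metal transport across membranes and for small metal-binding molecules such as nicotianamine. Such genes cannot be picked out here, because the count files name transcripts only by a contig number and pair none of them with a gene. The labelled tissue could for the same reason not be checked against leaf marker genes. What can be described is how many leaf transcripts separated the plants, how strongly, at which levels, and how this compared with the difference between individuals.

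The libraries held 59476715 and 60576935 counted reads in firmiensis, against 68439128 and 68408974 in N. montana. At this depth 3 reads, the limit that a count of 0 allows, stood for 0.0495 to 0.0504 CPM (read counts scaled to the total of the library) in firmiensis libraries and for 0.0438 to 0.0439 CPM in N. montana libraries. This limit covers counting error only, since reads amplified by PCR are not independent molecules. Of the 41841 transcripts, 32278 (77.1%) had reads in all 4 libraries and 17648 (42.2%) reached 1 CPM in all 4. In both firmiensis leaves 3945 transcripts (9.43%) had no read. The reference had been assembled from firmiensis plants grown in hydroponics with nickel, roots included, and not from these field leaves. In both N. montana leaves 3418 (8.17%) had no read. The N. montana libraries were deeper, so these numbers were not taken at equal depth.

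The plants differed in many of their measured leaf transcripts, with TMM scaling of the libraries in near-equal numbers in both directions. Past an adjusted p of 0.05 (edgeR quasi-likelihood test, Benjamini-Hochberg adjustment over all transcripts tested) were 10195 transcripts, or 30.9% of those tested. Of these, 5209 (15.8%) were higher and 4986 (15.1%) lower in firmiensis. The threshold favours large differences: 3275 (62.9%) of the 5209 higher transcripts exceeded N. montana by 4-fold or more, and 1377 (26.4%) by 16-fold or more. Of the 4986 lower transcripts, 3220 (64.6%) lay below N. montana by 4-fold or more and 1318 (26.4%) by 16-fold or more. For transcripts with no read in a plant these folds were taken as bounds against 3 reads over both of its libraries. Tested against a 2-fold difference instead of no difference, 2632 transcripts (7.98%) were higher and 2483 (7.53%) lower in firmiensis. At the other end, 9569 transcripts (29%) stayed within 2-fold across all 4 libraries, and in 1268 (3.84%) the highest library was at most 25% above the lowest. In bulk leaf RNA, fewer cells of a type and less RNA per cell cannot be told apart. N. montana reads were moreover counted on firmiensis sequences, so a poorer match of a transcript and less of its RNA cannot be told apart either.

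The balance of directions depended on the scaling of the libraries. Scaled by library totals alone, the median log2 fold change over all transcripts tested was -0.304, compared with -0.004 with the TMM factors used throughout, and 3897 transcripts were higher and 6660 lower in firmiensis, so that 36.9% of calls were higher in place of 51.1%. The counts also fell by over 1.5 times without single libraries: to 3316 higher and 2620 lower without firmiensis replicate 1, to 2887 higher and 2432 lower without N. montana replicate 1, and to 3021 higher and 2920 lower without N. montana replicate 2.

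**Figure D1:**
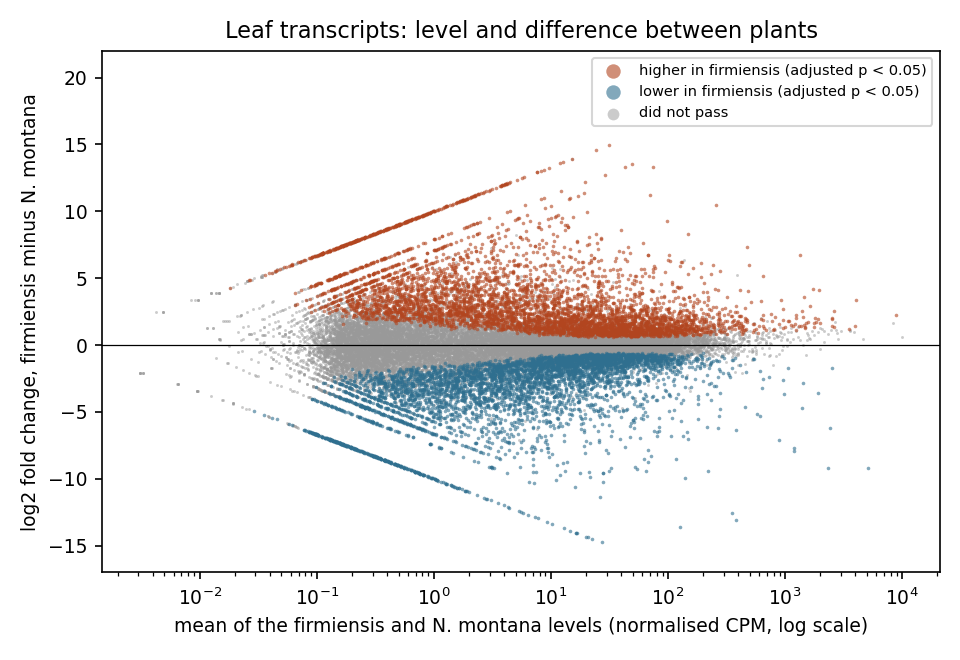
Each point is 1 of 32989 leaf transcripts; the horizontal axis is the mean of the firmiensis and N. montana levels in normalised CPM on a log scale, and the vertical axis the log2 fold change of firmiensis over N. montana. The 5209 higher (red) and 4986 lower (blue) transcripts are near-equal in number, while at the right, above 300 CPM, most coloured points lie above 0; the straight edges at the left and centre are transcripts with few or no reads in a plant.

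The most heavily read transcripts leaned towards firmiensis. Transcripts were grouped by their mean normalised CPM over both plants, which is not divided by transcript length, so the classes reflect length as well as abundance. Among the 393 transcripts at 300 CPM or more, 122 (31%) were higher and 35 (8.91%) lower in firmiensis, against 15.8% and 15.1% of all transcripts tested. In the class from 100 to 300 CPM, 344 of 1436 (24%) were higher and 150 (10.4%) lower. From 30 to 100 CPM the shares were 17.6% higher and 14.3% lower in firmiensis. From 10 to 30 CPM 15.6% were higher and 17.4% lower, and from 1 to 10 CPM 17.1% were higher and 19% lower. Under 1 CPM 12.3% were higher and 11.5% lower. With classes set by the level in Viviez, an alternative chosen after seeing the data, 16.2% were higher and 13.6% lower from 10 to 30 CPM, 14.9% higher and 17.5% lower from 1 to 10 CPM, and 12.7% higher and 18.1% lower under 1 CPM. The order from 10 to 30 CPM and under 1 CPM thus depended on how the classes were set. Viviez is of the same species as firmiensis, and by median its levels lay nearer to firmiensis for the called transcripts. Classes by Viviez level therefore draw transcripts higher in firmiensis upwards and lower ones downwards, and are no neutral setting.

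The same lean was measured over all transcripts of a class, called or not. The median log2 fold change was 0.626 in the class over 300 CPM (quartiles -0.125 and 1.37), 0.271 from 100 to 300 CPM and 0.0353 from 30 to 100 CPM, and it lay between -0.0684 and -0.0448 in the 3 classes below. Among the 393 most heavily read transcripts 280 had a positive log2 fold change. In 234 of them (59.5%) both firmiensis libraries lay above both N. montana libraries, and in 76 (19.3%) below, where all transcripts tested gave 34.3% above and 35.8% below. Of the 87 transcripts at 1000 CPM or more, which are part of the 393, 37 were called higher and 10 lower in firmiensis. Over all transcripts tested 15.8% were called higher and 15.1% lower. The median log2 fold change of the 87 was 1.12.

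A change of scaling shifts all log2 fold changes by nearly the same amount, so it could hardly move the distance of this class from the rest. The number of calls could move. The median of the class over 300 CPM lay 0.631 above the median of all transcripts with TMM factors, 0.634 above it with relative log expression factors and 0.567 above it with library totals. With library totals the calls in this class were 88 higher and 65 lower in firmiensis. It lay 0.556 to 0.968 above the median of all when a firmiensis or N. montana library was left out, the highest value being that without firmiensis replicate 2. The number of higher calls, 122, became 53 when firmiensis replicate 1 was dropped, 55 when N. montana replicate 1 was dropped, 68 when N. montana replicate 2 was dropped, and 75 and 72 without Viviez replicate 1 and 2, and the 35 lower calls became 22 without firmiensis replicate 1 and 18 without N. montana replicate 1.

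**Figure D2:**
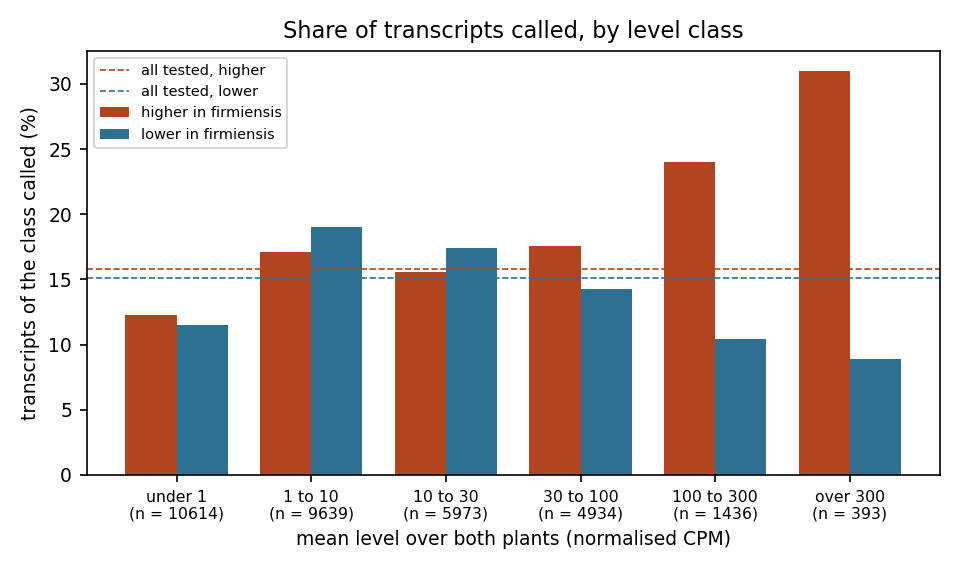
Bars give the percentage of transcripts in each class of mean level (normalised CPM over both plants, number of transcripts below each class) that were called higher (red) or lower (blue) in firmiensis than in N. montana at an adjusted p of 0.05. The share of higher calls reaches 31% over 300 CPM, against 8.91% lower, while the dashed lines mark 15.8% higher and 15.1% lower over all transcripts tested.

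In firmiensis the reads were gathered on fewer transcripts than in N. montana. Those of Viviez, the other N. caerulescens plant, were spread much like those of firmiensis when all transcripts were counted, except over the 10 most-read transcripts. The 100 most-read transcripts of each library took 26.84% and 22.31% of its reads in firmiensis, against 18.22% and 18.75% in N. montana. The 1000 most-read took 54.49% and 50.04% in firmiensis and 44.85% and 45.06% in N. montana. To reach 50% of the reads, 743 and 998 transcripts were needed in firmiensis, against 1355 and 1345 in N. montana. For each of these measures both firmiensis libraries lay on the same side of both N. montana libraries, and firmiensis replicate 1 was the most concentrated of the 4. The Viviez libraries had 22.88% and 25.74% of reads on their 100 most-read transcripts and needed 963 and 881 transcripts for 50% of the reads, within the range of the firmiensis libraries. On their 10 most-read transcripts they had 9.286% and 13.01%, above the 7.789% and 6.691% of firmiensis and the 5.882% and 5.513% of N. montana. Among these in Viviez was contig_1579, at 35660 and 76460 normalised CPM there, against 3047 and 5230 in firmiensis. It makes up a large part of the Viviez shares, and whether Viviez resembles firmiensis without it was not tested. With 2 libraries against 2, an exact two-sided permutation test cannot give a p below 0.333, and no other test of these measures was run.

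The class over 300 CPM held more of the reads in firmiensis than in N. montana, and each class below 100 CPM held less in both firmiensis libraries than in both N. montana libraries. The 393 transcripts over 300 CPM held 39.9% and 35.2% of the reads in firmiensis, against 29.5% and 30.7% in N. montana. The class from 100 to 300 CPM held 22.8% and 23.5% in firmiensis, against 23.6% and 22.7% in N. montana, and these overlapped. The class from 30 to 100 CPM held 24.3% and 26.4% in firmiensis, against 29.2% and 29.1% in N. montana, the widest gap in that direction. The class from 10 to 30 CPM held 9.37% and 10.7% in firmiensis, against 12.7% and 12.5% in N. montana, and the class from 1 to 10 CPM 3.27% and 3.81% in firmiensis, against 4.55% and 4.56% in N. montana. Transcripts under 1 CPM held 0.34% and 0.411% in firmiensis, against 0.452% and 0.493% in N. montana. Within the 651 called transcripts of at least 100 CPM, the 466 higher ones made up 26.2% and 22.7% of firmiensis reads and 7.56% and 9.58% of N. montana reads. The 185 lower ones made up 1.44% and 1.66% of firmiensis reads and 12.2% and 9.87% of N. montana reads. These shares describe transcripts picked by the same values and are no further test.

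**Figure D3:**
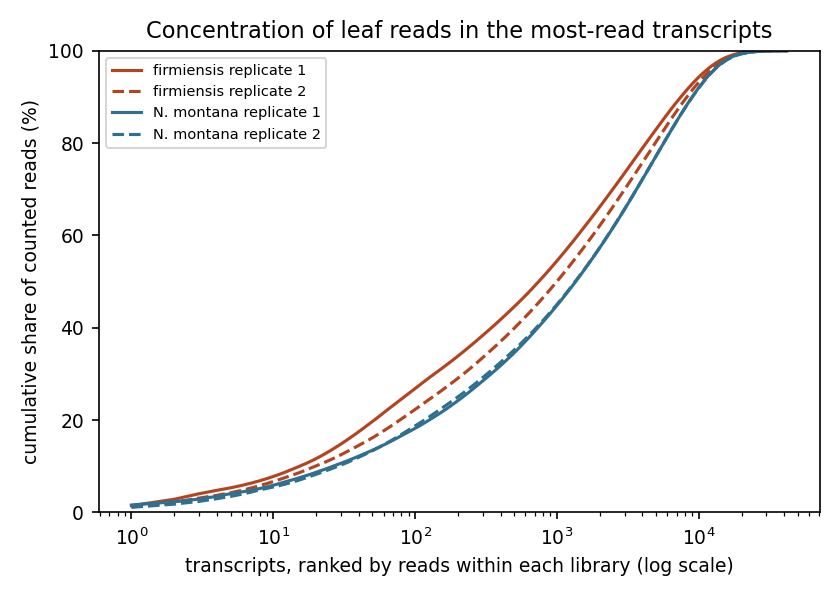
For each of the 4 libraries, transcripts are ranked by reads (horizontal axis, log scale) and the cumulative share of counted reads is drawn in percent. Both firmiensis curves (red) run above both N. montana curves (blue) between about rank 10 and the point where all reach the top, with 26.84% and 22.31% of reads in the first 100 transcripts in firmiensis against 18.22% and 18.75% in N. montana.

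At each level the plants stood further apart than the individuals of a plant did. For transcripts of 30 to 100 CPM, the median absolute log2 difference between a firmiensis and an N. montana library was 0.583, against 0.282 between the firmiensis individuals and 0.25 between the N. montana individuals. Over 300 CPM it was 0.97 between plants, 0.431 between the firmiensis individuals and 0.415 between the N. montana individuals. Under 1 CPM, where counts are few, it was 1.4 between plants, 0.698 within firmiensis and 0.596 within N. montana. All log2 levels used here carry a prior count of 2, which draws small counts together.

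In every class of level, the firmiensis individuals stood somewhat further apart than the N. montana individuals. Over all transcripts tested, 21.67% differed by over 2-fold between the firmiensis individuals and 18.84% between the N. montana individuals, against 48.12% to 51.72% for the 4 pairs of libraries from different plants. Over 4-fold apart were 2021 transcripts (6.126%) between the firmiensis individuals, 1487 (4.508%) between the N. montana individuals, and 8323 to 9133 between plants. Counted in reads, 85.04% of the composition of the firmiensis libraries and 84.43% of that of the N. montana libraries was shared by the individuals, against 63.53% to 69.8% shared between plants. The lowest of these, 63.53%, was between firmiensis replicate 1 and N. montana replicate 1. As a check that no library was a copy of another, the counts of replicate libraries were compared, and they were not alike within sampling noise (chi-square over its degrees of freedom, 157.6 in firmiensis and 178.5 in N. montana, with reads taken as independent).

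**Figure D4:**
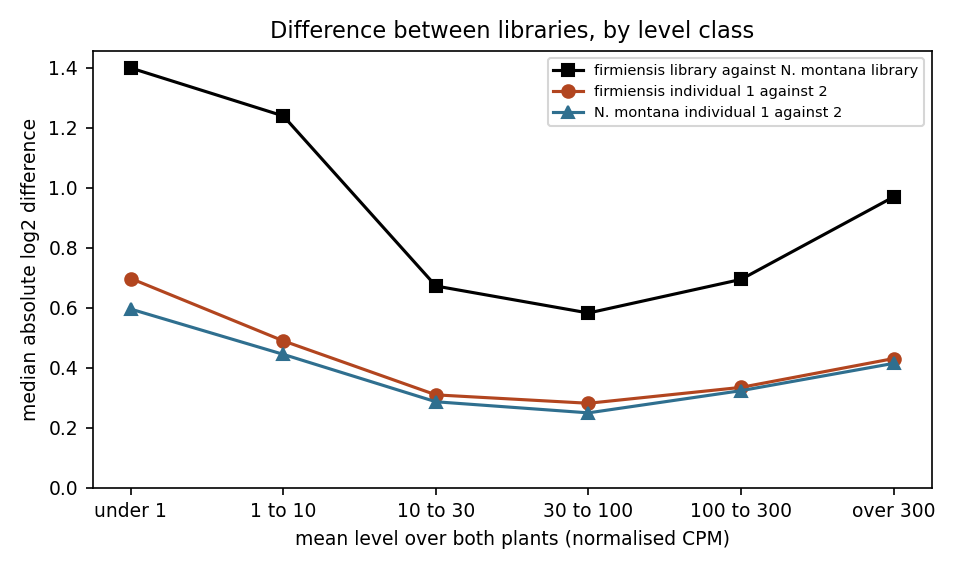
The median absolute log2 difference in normalised CPM is drawn for each class of mean level, between libraries of different plants (black squares, 4 pairs pooled), between the firmiensis individuals (red circles) and between the N. montana individuals (blue triangles). Between plants it is 0.583 at 30 to 100 CPM and 0.97 over 300 CPM, above both within-plant values in every class.

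Single transcripts of high level illustrate these counts but do not stand for most of them. All the named calls lie in the class over 300 CPM, which held 157 of the 10195 calls. The class under 1 CPM held 2526 and that from 1 to 10 CPM 3478. The transcripts with the highest levels among those higher in firmiensis were contig_8694 and contig_5093. Contig_5093 stood at 8541 and 6103 normalised CPM in firmiensis, against 395.8 and 995.4 in N. montana. The groups were far apart, with the lower firmiensis library 6.13-fold above the higher N. montana library. The means were 7322 ± 1720 CPM in firmiensis and 695.6 ± 424 CPM in N. montana (SD, n = 2 each), a log2 fold change of 3.4 ± 0.57 (SE, edgeR adjusted p = 0.00994). It stayed past the threshold in 14 of 14 alternatives, with adjusted p from 6.24e-11 to 0.0299, and its log2 fold change was 4.22 without N. montana replicate 2. Viviez lay between the other plants, at 2342 and 2370 CPM.

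Contig_8694 was among the most heavily read transcripts of firmiensis leaves, with 873639 and 723985 reads there, against 142718 and 335165 in N. montana. It stood at 16990 and 12170 normalised CPM in firmiensis, against 1882 and 4201 in N. montana. The groups did not overlap, which the choice of this transcript required and which held for all 5209 higher calls. The N. montana individuals differed 2.23-fold. On the log2 scale firmiensis was higher by 2.26 ± 0.57 (SE, edgeR adjusted p = 0.0299). In 6 of 14 alternatives it missed the threshold, and the adjusted p ran from 4.32e-06 to 0.0818. The log2 fold change was 1.81 without N. montana replicate 1 (edgeR adjusted p = 0.0777) and 2.01 without firmiensis replicate 1 (edgeR adjusted p = 0.0752), and leaving out either Viviez library also ended the call, with adjusted p of 0.0612 and 0.0629. It was 2.96 without N. montana replicate 2, where the call held. Fitted on the 4 libraries alone, the edgeR adjusted p was 0.0818.

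Contig_32541 was the transcript of highest level among those lower in firmiensis. It stood at 33.26 and 1.429 normalised CPM in firmiensis, against 14510 and 5910 in N. montana, where it was read 1100808 and 471485 times. The groups were separated by orders of magnitude, yet the firmiensis individuals themselves differed 23.3-fold, on 1710 and 85 reads. The N. montana individuals differed 2.46-fold, and of all transcripts this one had the largest absolute difference in normalised CPM between them. The fitted log2 fold change of -9.2 ± 1.79 (SE, edgeR adjusted p = 0.0146) became -12.8 without firmiensis replicate 1, -8.24 without firmiensis replicate 2 and -8.4 without N. montana replicate 1. In Viviez it stood at 6.269 and 15.41 CPM, near the firmiensis values.

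Of the 4 named calls, contig_10353 moved least over the alternatives. It stood at 82.18 and 46.99 normalised CPM in firmiensis, against 5365 and 4121 in N. montana. Individuals of the same plant differed 1.75-fold in firmiensis and 1.3-fold in N. montana. The difference of -6.2 ± 0.67 on the log2 scale (SE, edgeR adjusted p = 0.00335) ran from -6.65 to -5.83 over 14 alternatives, all past the threshold, with adjusted p from 2.13e-29 to 0.015. Viviez stood at 140.4 and 56.14 CPM.

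Some heavily read transcripts were close to level between the plants. Contig_709 stood at 1582 and 1274 normalised CPM in firmiensis, against 1341 and 1519 in N. montana, and the groups overlapped. Contig_719 stood at 643.8 and 600.5 CPM in firmiensis, against 545.1 and 547 in N. montana, with a log2 fold change of 0.19 ± 0.36 (SE, edgeR adjusted p = 0.719). These were the highest-level transcripts whose highest library was at most 25% above the lowest of the 4. Between the firmiensis individuals, the largest absolute difference in normalised CPM was that of contig_13140. It stood at 15930 and 9545 CPM in firmiensis, against 3285 and 4978 in N. montana, a log2 fold change of 1.62 ± 0.51 that missed the threshold (SE, edgeR adjusted p = 0.0554), although the groups did not overlap. It passed in 4 of 14 alternatives, over which the adjusted p ran from 0.000118 to 0.153.

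**Figure D5:**
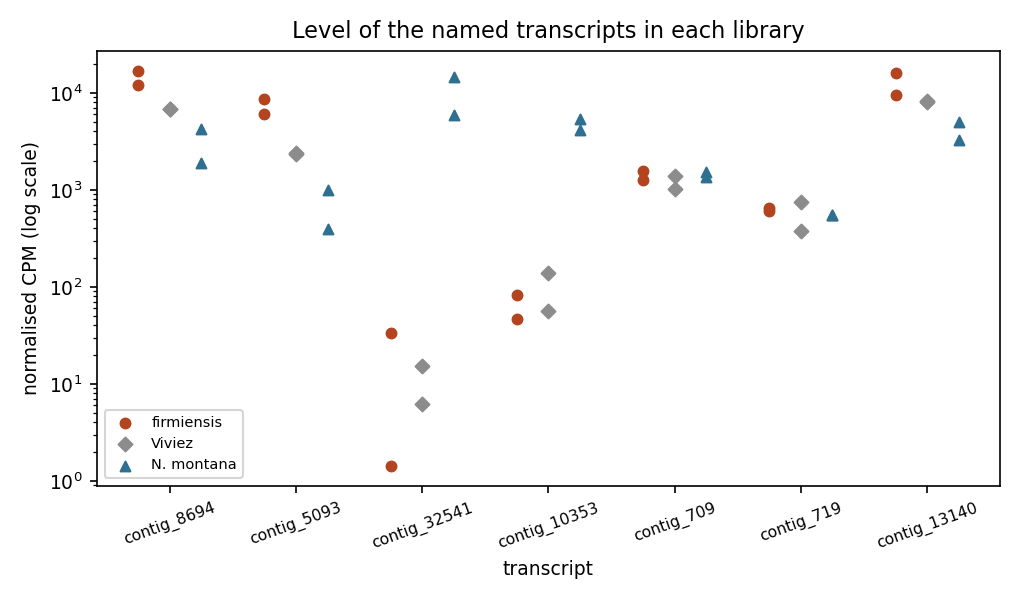
Points give the normalised CPM (log scale) of 7 named transcripts in each library of firmiensis (red circles), Viviez (grey diamonds) and N. montana (blue triangles), without averaging. Contig_8694 and contig_5093 are higher in both firmiensis libraries than in both N. montana libraries, contig_32541 and contig_10353 are lower, contig_709 and contig_719 lie close together in all 4, and for contig_32541 the firmiensis points, 33.26 and 1.429 CPM, are far apart.

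Transcripts read in both individuals of a plant and hardly or not read in the other plant were few and mostly of low level. When presence was set at 1 CPM in each library, and absence at 3 reads or fewer summed over the other plant, 188 transcripts were read in firmiensis and not detected in N. montana. Their mean level ran from 1.07 to 138 CPM with a median of 3.56, and 29 of the 188 reached 10 CPM. The reverse held for 200 transcripts, read in N. montana and not detected in firmiensis, with mean levels from 1.04 to 287 CPM and a median of 2.71, of which 30 reached 10 CPM. Together the 188 made up 0.14% and 0.158% of firmiensis reads, and the 200 made up 0.194% and 0.123% of N. montana reads. No read at all was found in the other plant for 107 of the 188 and for 92 of the 200.

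These sets differed in how they stood in Viviez. Of the 188 transcripts read in firmiensis and not detected in N. montana, 82 reached 1 CPM in both Viviez libraries, 60 were not detected there and 46 lay between. Of the 200 transcripts read in N. montana and not detected in firmiensis, 7 reached 1 CPM in both Viviez libraries, 114 were not detected there and 79 lay between. The firmiensis individuals differed by over 4-fold in 7 of the 188, and the N. montana individuals in 19 of the 200. Over all transcripts tested, at all levels and with TMM scaling and the prior count, these shares were 6.126% and 4.508%. The numbers rose without single libraries: the 188 became 298 when firmiensis replicate 1 was dropped, 321 when N. montana replicate 1 was dropped and 339 when N. montana replicate 2 was dropped, and the 200 became 347 and 427 when firmiensis replicate 1 or 2 was dropped and 313 when N. montana replicate 2 was dropped. The list of transcripts came from firmiensis, and its part in these numbers was not tested.

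Viviez allows the differences to be set beside those of a plant of the same species as firmiensis. For the 5209 transcripts higher in firmiensis than in N. montana, the median log2 fold change was 2.55 for firmiensis over N. montana, 1.58 for Viviez over N. montana and 0.529 for firmiensis over Viviez. For the 4986 lower transcripts it was -2.66 for firmiensis over N. montana, -2.3 for Viviez over N. montana and -0.179 for firmiensis over Viviez. The medians over all transcripts tested were -0.0044, -0.0787 and 0.0391 for the same comparisons. These comparisons share libraries, those of N. montana or of firmiensis, and the transcripts were chosen by one of them, so the values are a description and no test of a difference between plants. Viviez leaves were collected in June, as were those of N. montana.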

How the data were processed

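Leaf polyA RNA of 2 firmiensis, 2 Viviez and 2 N. montana individuals had been sequenced as strand-specific Illumina paired ends, per the labels' protocols. The authors deposited raw read counts per transcript, counted, per the series' design text, on a transcriptome assembled de novo from hydroponic firmiensis. Their assembly, alignment, counting and filter settings: not given in the sources used here. Of 41843 transcripts, 2 with empty cells were left out. The 4 hydroponic libraries were not analysed here.

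The counts were analysed with edgeR 4.0.16 (R 4.3.3). After filterByExpr at a minimum count of 10, 32989 transcripts with 99.96% of reads remained, and libraries were scaled by TMM factors. The quasi-likelihood fit used all 6 libraries with a coefficient per plant (3 residual degrees of freedom, prior degrees of freedom 3.18, common biological coefficient of variation 39.5%). P-values were Benjamini-Hochberg adjusted over all transcripts tested, with a threshold of 0.05, and glmTreat tested against 2-fold. Levels are TMM-normalised CPM, except for detection, which used unscaled CPM. The SE is the log2 fold change divided by the square root of F. DESeq2 1.42.0 and limma 3.58.1 served as alternatives. The procedure was tested on simulated data.

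Named were the 2 higher and 2 lower transcripts of highest level among non-overlapping calls, the 2 of highest level whose highest library was at most 25% above the lowest of the 4, and for each plant the transcript with the largest absolute difference between individuals. Comparisons, rules and lists of metal-related genes were chosen with earlier results of these data known, and no gene list was used, as contigs carry no gene names.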

Additional observations from a re-analysis of the deposited data

How the results depend on the processing

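Every named call kept its direction in all 14 alternatives. Transcripts shared with the original calls also had the same sign, which could hardly differ, because the fits share their counts. The balance of the counts was not kept: with library totals 3897 transcripts were higher and 6660 lower in firmiensis. When only the 17648 transcripts at 1 CPM or more in all 4 libraries were tested, 2755 were higher and 2610 lower in firmiensis, and against 2-fold 730 higher and 682 lower. With DESeq2 6604 were higher and 6202 lower, and with limma voom 5675 and 5544. Tested against a log2 fold change of 2, 1007 were higher and 883 lower. With the 4 libraries alone, 4162 were higher and 4112 lower, and over 300 CPM 75 were higher. With library totals 65 were lower over 300 CPM, and with classes set by Viviez levels, an alternative chosen after seeing the data like all those for this class, 10 were lower and 177 higher. Viviez levels lay nearer to firmiensis for the called transcripts, so this setting favours higher calls in the top class and adds no support to the lean. At 5 CPM, 51 transcripts were read in firmiensis and not detected in N. montana and 35 the reverse, and with 0 reads required 107 and 92. The causes were not tested.

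Leaving out single libraries, which leaves a plant with 1 library assumed to vary like the others, gave 2887 to 3977 higher and 2432 to 3560 lower transcripts, and against 2-fold 1359 to 1879 higher and 1049 to 1546 lower. Over 300 CPM it gave 53 to 131 higher and 18 to 33 lower. Detection in a single plant, which cannot fall when a library is dropped, ran from 262 to 339 for firmiensis and from 276 to 427 for N. montana. With the replicate number as a block, 3834 were higher and 3624 lower, against 2-fold 1812 and 1675, and over 300 CPM 75 and 30. The numbers name separate individuals and did not pair the libraries: deviations of same-numbered libraries correlated at -0.0598 between firmiensis and N. montana, 0.0155 between firmiensis and Viviez and -0.0374 between Viviez and N. montana.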

Other observations

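Transcripts with higher contig numbers had lower levels and larger fitted differences between the plants. The median level over firmiensis and N. montana was 27.7 CPM for the 9695 tested transcripts numbered up to 10000, 8.07 CPM for the next 10000 numbers, 0.904 CPM for those after 20000 and 0.385 CPM for those after 30000. In the same order 16%, 16.1%, 16.1% and 14.6% were called higher in firmiensis than in N. montana, and 16.6%, 15.7%, 13.5% and 13.9% lower. The median absolute log2 fold change of firmiensis over N. montana was 0.661, 0.827, 1.28 and 1.52 in that order of numbers, rising as the level fell. Transcripts with successive numbers had a correlation across 27430 pairs of 0.441 in level and of 0.0355 in log2 fold change. At numbers 100 apart these were 0.429 and 0.00365. Pairs of transcripts are not independent and share the libraries.

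The largest absolute difference between individuals of Viviez was that of contig_1579, at 35660 and 76460 normalised CPM. It stood at 3047 and 5230 CPM in firmiensis, against 1421 and 1090 CPM in N. montana, a log2 fold change of 1.72 ± 0.67 for firmiensis over N. montana (SE, edgeR adjusted p = 0.0989).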
